A study of Mus musculus with 2 samples.

Results

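The genes described here encode the nuclear subunits of the 5 oxidative phosphorylation complexes. They were chosen by symbol alone: names beginning with Nduf, a subunit letter (a, b, c, s or v) and a number, the Sdha to Sdhd genes, names beginning with Uqcr or Atp5, and the Cox4 to Cox8 genes whose number is followed by a letter, leaving out names that end in Rik or ps. The count table held 84 such genes among 21983 entries: 37 of complex I, 4 of complex II, 8 of complex III, 18 of complex IV and 17 of complex V. At least 20 counts over both libraries were reached by 77 of the 84, and by 13313 genes in all. RNA was sequenced from primary chondrocytes of wild-type mice, the cells that build and keep up cartilage. Cells were kept for 3 days in serum-containing medium with either PBS (phosphate-buffered saline, control) or 50 ng/ml recombinant mouse Sparcl1, a secreted matricellular protein. Strain, age and the number of animals behind each culture are not given in the sources used here. Each condition had 1 library, so no difference below has a replicate check, no p-value is given, and each interval is an exact 95% Clopper-Pearson interval that covers counting error of reads only and compares 2 libraries.

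Oxidative phosphorylation is the chain of inner-membrane enzymes that turns the energy of NADH and succinate into ATP. Complex I (NADH dehydrogenase) and complex II (succinate dehydrogenase) pass electrons to coenzyme Q, complex III (cytochrome bc1) passes them to cytochrome c, and complex IV (cytochrome c oxidase) hands them to oxygen. Complexes I, III and IV pump protons, and complex V (ATP synthase) uses the gradient to make ATP. The mitochondrial genome encodes a few central subunits, and all other subunits, those of complex II included, come from nuclear genes. Chondrocytes live in tissue without blood vessels and are known for a strong reliance on glycolysis.

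The libraries held 29858851 counts (control) and 26871933 counts (Sparcl1-treated). All 9 chondrocyte markers were measured, with summed levels of 13380 and 11730 CPM (counts after TMM scaling of both libraries), and so were all 12 macrophage markers, at 2326 and 2635 CPM. Of the 9 chondrocyte ratios (Sparcl1-treated over control) 8 lay below 1, 7 of them with intervals below equality, and 1 lay above. Without Col2a1 the other 8 chondrocyte markers summed to 4750 and 4396 CPM. Without Lyz2 the other 11 macrophage markers summed to 999 and 995 CPM, and 7 of the 12 ratios lay above 1. Of 6 osteoblast and 5 fibroblast or perichondrium markers all were measured, with sums of 261 and 189 CPM and of 1449 and 1133 CPM. Postn carried the second difference, and the other 4 fibroblast or perichondrium markers summed to 253 and 294 CPM. All 6 osteoblast ratios lay below 1, 3 of them with intervals below equality. Every nucleated cell type expresses most subunit genes, so the part that each cell type had in the values below was not tested. In bulk RNA, fewer cells of a type and less RNA per cell cannot be told apart.

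As a group the subunit genes lay close to equal expression in both libraries. Together they took 143820 counts, or 0.482%, of the control library and 140147 counts, or 0.522%, of the Sparcl1-treated library. The median log2 ratio of CPM (Sparcl1-treated over control, as everywhere below) was 0.06 over the 77 measured members, against -0.0019 over all 13313 measured genes, and 54 members had ratios above 1 while 23 had ratios below 1. Over all genes 49.6% had a ratio above 1. The members' middle 50% ran from -0.02 to 0.15, and the extremes were -0.71 (Cox6a2) and 0.75 (Atp5g2). No member passed a 2-fold rule (log2 ratio of 1 or more in either direction, interval excluding 0), which 0.954% of all genes passed upward and 0.946% downward. With a 1.5-fold size in the same rule, 2 members were higher (Atp5g2 and Cox6b2) and 1 was lower (Cox6a2), where 2.32% and 2.35% of all genes were called. These 3 are among the least abundant members and rest on 107, 251 and 136 counts summed over both libraries. With the length and GC trends described next removed, neither Atp5g2 (0.58, interval -0.0061 to 1.17) nor Cox6b2 (0.46) passed the 1.5-fold rule.

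**Figure D1:**
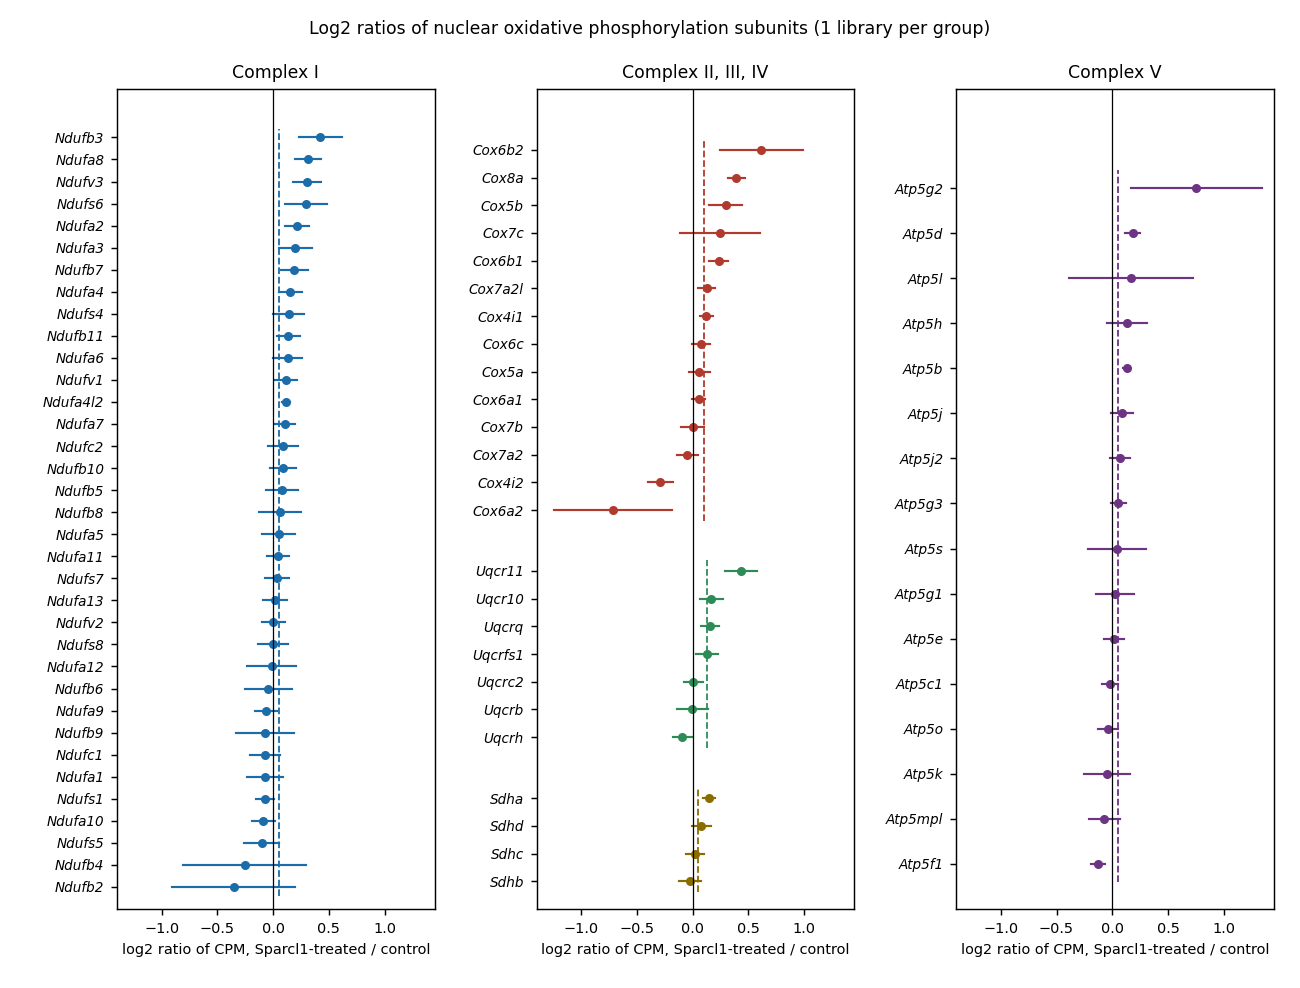
Log2 ratios of CPM (Sparcl1-treated over control, x axis) for 76 of the 77 measured subunit genes (rows), grouped by complex. Points are single-library ratios, horizontal bars are 95% counting intervals, and dashed lines are medians over all measured members of a complex, which run from 0.05 to 0.13. Most points sit within 0.2 of 0, and the widest bars belong to rare transcripts such as Atp5g2, Cox6a2 and Ndufb2.

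The members' median log2 ratio was lower in longer transcripts, and it lay close to 0 with length and GC trends removed together. The part of base composition alone was not tested. Subunit transcripts are short, with a median of 732 bases against 2884 for the other measured genes. Among transcripts under 700 bases the median log2 ratio was 0.09 for 35 members and 0.10 for 271 other genes. From 700 to 1500 bases it was 0.05 for 30 members and 0.06 for 1838 other genes, and at 1500 bases or more 0.01 for 12 members and -0.01 for 11075 others. Other genes of the same length thus had medians within 0.03 of those of the members. The share of ratios above 1 was larger among members in each class. It was 71% against 66% in the shortest class, 67% against 62% in the middle class and 75% against 47% in the longest. With smooth trends on transcript length and GC content removed from all genes, the members' median was -0.0027, and 37 of 77 ratios lay above 1 in place of 54.

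**Figure D2:**
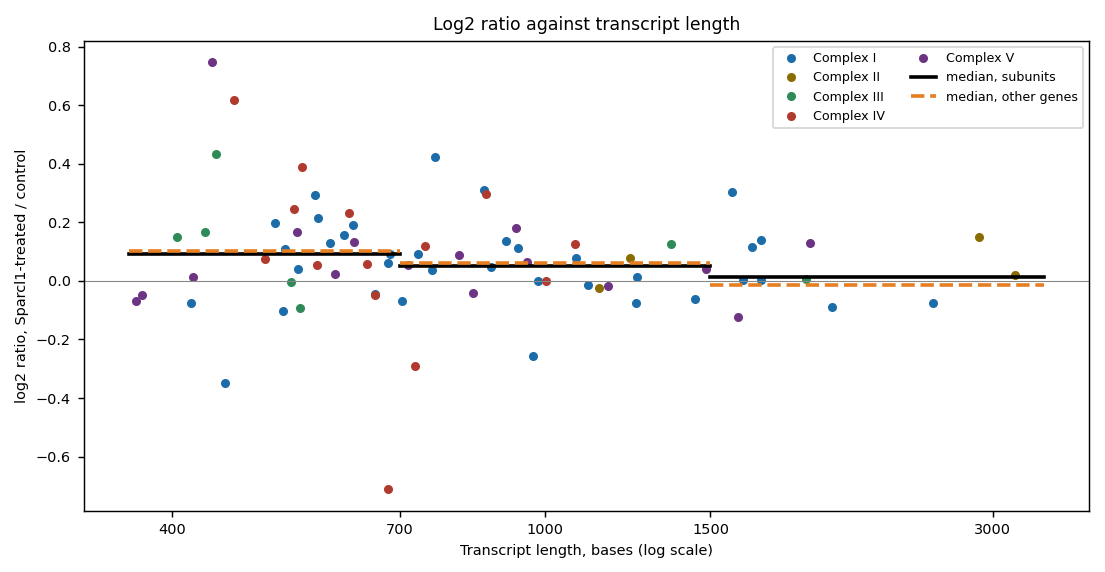
Log2 ratio (Sparcl1-treated over control, y axis) against transcript length in bases (log x axis) for the 77 subunit genes, coloured by complex. Solid lines are the subunits' medians in 3 length classes and dashed lines those of other genes, 0.09 against 0.10 in the shortest class, so both sets of lines step down together with length.

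Counting intervals alone separate many abundant genes from equality. They lay wholly above 0 for 26 members and wholly below 0 for 4, whereas 20.1% and 21.6% of all genes did so. Among the 59 members with 1000 to 10000 summed counts the numbers were 19 and 3, and over all 7112 genes in that range 23.2% lay above and 24.7% below. In the same range the middle 50% of log2 ratios spanned 0.14 for the members and 0.21 for all genes, and 51 of 59 members lay within 0.2 of 0, as 79.6% of all such genes did.

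Complex I, the largest enzyme of the chain, had a median log2 ratio of 0.06 over 36 measured members, with 25 ratios above 1 and 11 below. Its 6 measured core subunits, which hold the flavin, the iron-sulfur clusters and the quinone site, stayed between -0.08 and 0.11 with a median of 0.0033. Ndufs1, the largest iron-sulfur subunit, was the lowest core member, with 2715 counts with PBS and 2376 with Sparcl1 (log2 -0.08, interval -0.16 to 0.0047). Ndufv1, which binds the flavin that accepts electrons from NADH, had 1712 and 1709 counts (0.11, 0.02 to 0.21). Its interval was the only 1 of the 6 core subunits to exclude 0. With the length and GC trends removed Ndufv1 was at 0.02 (-0.08 to 0.12), while Ndufs7 (-0.13) and Ndufs8 (-0.14) had intervals below 0. Removing the trends placed the median of all complex I members at -0.036.

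The accessory subunits of complex I, which surround and stabilise the core, spread more widely. Over 28 of them the median was 0.07 and the range -0.35 to 0.42. Ndufb3, a small membrane-arm subunit (chromosome 1, 58586384 to 58595964), stood highest, with 395 counts with PBS and 488 with Sparcl1 (0.42, 0.23 to 0.62). Ndufa8, a subunit of the intermembrane-space face, had 1090 and 1247 counts (0.31, 0.19 to 0.43), and Ndufv3, a small subunit of the NADH-binding arm, had 1015 and 1155 (0.30, 0.18 to 0.43). These 3 were the highest complex I members with at least 200 summed counts, and each was less than 1.5-fold higher. At the other end, Ndufs5 had 731 and 627 counts (-0.10, -0.26 to 0.05) and Ndufa10 had 1621 and 1406 (-0.09, -0.19 to 0.02). Both intervals hold 0, but with the length and GC trends removed they lay below 0, around -0.22 for Ndufs5 and -0.11 for Ndufa10. The lowest ratios of the complex, those of Ndufb2 (69 and 50 counts, -0.35) and Ndufb4 (66 and 51, -0.25), are loosely fixed, with intervals from -0.90 to 0.20 and from -0.81 to 0.29. Exons of Gm16272 and Gm42420 overlap 50.3% of the Ndufb2 transcript, and a near-identical copy covers 40.2% of the Ndufb4 transcript.

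Complex II, which also acts in the citric acid cycle, has 4 subunits, all measured, with a median log2 ratio of 0.05. The flavoprotein Sdha, which oxidises succinate, had 5442 and 5562 counts (0.15, 0.09 to 0.20). The iron-sulfur subunit Sdhb had 1791 and 1623 counts (-0.02, -0.12 to 0.07). The membrane anchors Sdhc (2596 and 2428 counts) and Sdhd (2207 and 2147) had ratios of 0.02 and 0.08, with intervals that hold 0. Sdha was the 1 subunit of the 4 whose interval excluded equality, but with the length and GC trends removed Sdhb stood at -0.13 (-0.22 to -0.03) as well.

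Complex III had the highest median of the 5 complexes, 0.13 over 7 measured members. With the length and GC trends removed its median was 0.0097 and complex II stood highest, at 0.037. Uqcr11, a small accessory subunit (chromosome 10, 80402997 to 80406830), had 701 counts with PBS and 873 with Sparcl1, a 1.35-fold difference (log2 0.43, 0.29 to 0.58) and the largest of any member with at least 1000 summed counts. With the trends removed it stood at 0.25 and Cox5b was as high. Near-identical copies cover 38.4% of the Uqcr11 transcript. Uqcr10 (1465 and 1516 counts, 0.17) and Uqcrq (2424 and 2482, 0.15) were also above equality. Both are small accessory subunits, and with the trends removed they stood at 0.0097 and -0.037. The Rieske iron-sulfur protein Uqcrfs1, which carries electrons toward cytochrome c1, had 1723 and 1733 counts (0.13, 0.03 to 0.22). Uqcrh, the hinge protein, was the only member with an interval below 0 (2500 and 2160 counts, -0.09, -0.18 to -0.01), while Uqcrb and the core protein Uqcrc2 stood at -0.0047 and 0.0070. Uqcrc1, the other core protein, was listed at 0 in both libraries.

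Complex IV is where mammals use most alternative isoforms, and its 14 measured members had the widest spread, from -0.71 to 0.62 around a median of 0.10. Cox8a, the general form of the small membrane subunit 8, had 2560 counts with PBS and 3094 with Sparcl1, a 1.31-fold difference (log2 0.39, 0.31 to 0.47). Cox5b, which binds zinc on the matrix side, had 707 and 801 counts (0.30, 0.15 to 0.45), and Cox6b1, which caps the enzyme on the intermembrane-space side, had 2069 and 2241 (0.23, 0.15 to 0.32). All 3 intervals lie above 0, and a near-identical copy covers 45.1% of the Cox5b transcript. Cox5a, Cox6c and Cox6a1 stood between 0.05 and 0.07 and Cox7b and Cox7a2 between -0.05 and 0, with intervals that hold 0. With the trends removed Cox8a stood at 0.22 and Cox6a1 at -0.12. Cox7a2l, which links complexes III and IV into supercomplexes and is not a structural subunit of the free enzyme, had 2759 and 2779 counts (0.13, 0.05 to 0.20).

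The isoform genes of subunit 4 had ratios on opposite sides of 1, although Cox4i1 lay just below 1 once the length and GC trends were removed. Cox4i1, the general form (chromosome 8, 120668222 to 120674207), had 4632 counts with PBS and 4642 with Sparcl1 (log2 0.12, 0.06 to 0.18). Cox4i2, the form known from lung and from cells at low oxygen (chromosome 2, 152754173 to 152765037), had 1495 and 1127 counts (-0.29, -0.40 to -0.18), 1.22-fold lower. Cox4i2 made up 24.4% of the pair's counts with PBS (interval 23.3 to 25.5) and 19.5% with Sparcl1 (18.5 to 20.6). These intervals cover counting error of reads only. Among all genes of 1000 to 10000 summed counts, intervals of the log2 ratio excluded 0 for 23.2% upward and 24.7% downward. Per kilobase of transcript, Cox4i1 stood 3.02-fold above Cox4i2 in the control and 4.02-fold above it after Sparcl1. With length and GC trends removed, Cox4i2 was at -0.44 and Cox4i1 at -0.03. For Cox4i1, 18.0% of the transcript is shared with exons of the neighbouring gene Emc8.

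The muscle isoforms of complex IV were rare or listed at 0. Cox6a2, the heart and skeletal muscle form of subunit 6a (chromosome 7, 128205435 to 128206387), had 87 counts with PBS and 49 with Sparcl1, 1.64-fold lower (log2 -0.71, -1.25 to -0.19), and made up 1.8% and 1.07% of the counts of the Cox6a pair. Cox7a1, the muscle form of subunit 7a, had 8 and 6 counts and fell under the minimum of 20, the nearest member below it, while the nearest above it was Atp5g2 with 107. Cox8b, the muscle form of subunit 8, was listed at 0. Muscle markers were nearly absent as well: the 8 skeletal muscle markers summed to 2.0 and 2.13 CPM with Ckm and Myh4 at 0, and the 5 heart muscle markers to 0.102 and 0.478 CPM. Cox6b2, known as the testis form of subunit 6b, had 104 and 147 counts, 1.53-fold higher (0.62, 0.24 to 0.99), and made up 4.79% and 6.16% of the counts of its pair (intervals 3.93 to 5.77 and 5.23 to 7.20). The testis forms Cox7b2 and Cox8c were listed at 0.

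**Figure D3:**
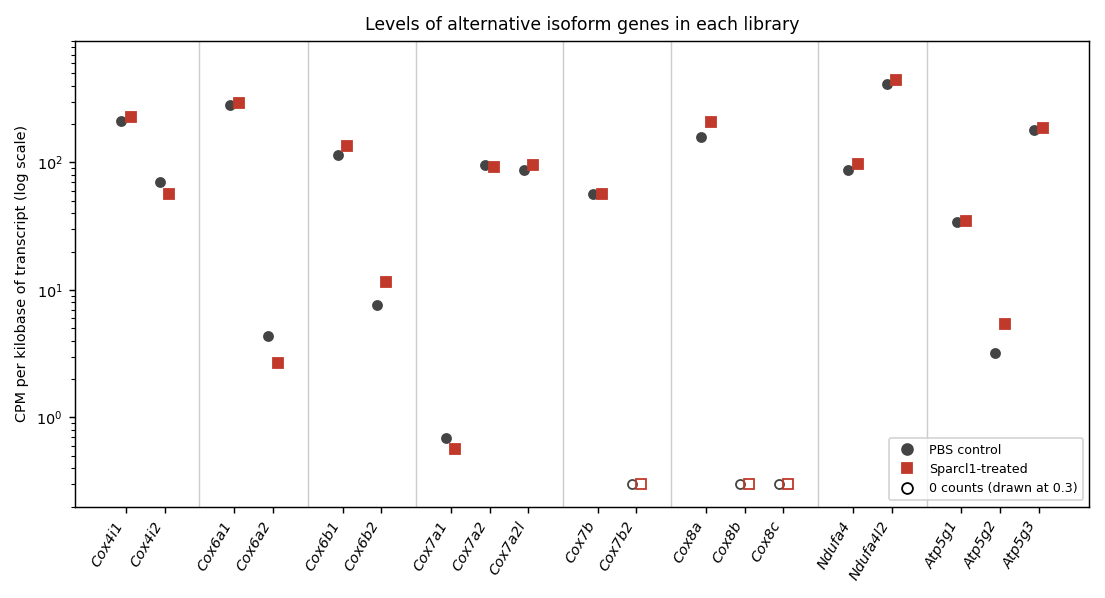
Levels of the isoform genes in CPM per kilobase of transcript (log y axis) in the control (circles) and Sparcl1-treated library (squares), with vertical lines between isoform groups. Open symbols mark 0 counts and are drawn at 0.3. In each group 1 gene or a pair of genes carries nearly all of the signal, and Ndufa4l2, at 411 and 445, stands highest.

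Ndufa4l2 was the most abundant member per length in both libraries. It is a relative of Ndufa4 that is switched on by hypoxia-inducible factor and is known to hold back respiration (chromosome 10, 127514967 to 127517154). It had 11328 counts with PBS and 11294 with Sparcl1, or 411 and 445 CPM per kilobase, and a log2 ratio of 0.11 (0.08 to 0.15), or -0.037 with the length and GC trends removed. Ndufa4, named for complex I but found with complex IV, had 1558 and 1600 counts, or 86.6 and 96.4 CPM per kilobase (0.16, 0.05 to 0.26). The level of Ndufa4l2 was thus 4.75-fold that of Ndufa4 in the control and 4.61-fold in the treated library, and its part of the pair's counts, 87.9% and 87.6%, hardly differed (intervals 87.3 to 88.5 and 87.0 to 88.2).

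Complex V had a median of 0.05 over 16 measured members, with 11 ratios above 1, and -0.023 with the length and GC trends removed. In the catalytic F1 head, Atp5b, the beta subunit that makes ATP, had the most counts of any member, 15901 with PBS and 16033 with Sparcl1 (log2 0.13, 0.10 to 0.16). Atp5d, the delta subunit of the central stalk, had 3688 and 3857 counts (0.18, 0.12 to 0.25), or 0.02 (-0.04 to 0.09) with the trends removed, and the gamma subunit Atp5c1 had 3494 and 3181 (-0.02, -0.09 to 0.05). The epsilon subunit Atp5e was at 0.01. Atp5a1, the alpha subunit that alternates with Atp5b in the head, was listed at 0 in both libraries, so the head could not be described in full.

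In the Fo part and the stalks of complex V, 11 members had a median of 0.05 and a summed level of 562 and 561 CPM. Atp5f1, the b subunit of the peripheral stalk, was the only complex V member with an interval below 0 (4458 and 3771 counts, -0.12, -0.19 to -0.06), but with the trends removed Atp5o and Atp5e, both at -0.13, also had intervals below 0. A near-identical copy covers 43.4% of the Atp5f1 transcript, and exons of Gm42890 and Wdr77 overlap 21.0% of it. Atp5mpl (912 and 801 counts, -0.07) and Atp5k (423 and 377, -0.05), small subunits of the membrane part, had intervals that hold 0, as did Atp5h of the peripheral stalk (522 and 528, 0.13). Subunit c, which forms the rotating ring, is encoded by 3 genes. Atp5g3 had 3807 and 3641 counts (0.05), Atp5g1 600 and 562 (0.02) and Atp5g2 42 and 65 (0.75, 0.17 to 1.34; chromosome 15, 102662864 to 102672352). Atp5g3 carried 85.6% and 85.3% of the 3 genes' counts. Near-identical copies cover the whole Atp5g2 transcript and 69.0% of Atp5g1, so their values and these shares are uncertain. With the trends removed Atp5g3 stood at -0.0089 and Atp5g1 at -0.13.

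Levels per length differed far more between subunits than between libraries. The median level was 37.6 CPM per kilobase in complex I, 57.6 in complex II, 62.8 in complex III, 92.6 in complex IV and 77.9 in complex V (mean of both libraries). Behind Ndufa4l2, the most abundant transcripts per length were Atp5b (281 with PBS and 308 with Sparcl1), Cox6a1 (282 and 292), Cox4i1 (211 and 229) and Uqcrq (203 and 225). The most abundant complex II member was Sdha, at 63.6 and 70.5. Atp5b and Cox6a1 changed places between the libraries. The least abundant measured members were Ndufb4 (2.30 and 1.93), Cox6a2 (4.34 and 2.65) and Atp5l (3.49 and 3.92), a 202-fold span from Ndufb4 to Ndufa4l2, although Ndufb4 and Atp5l belong to enzymes whose other subunits are abundant.

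**Figure D4:**
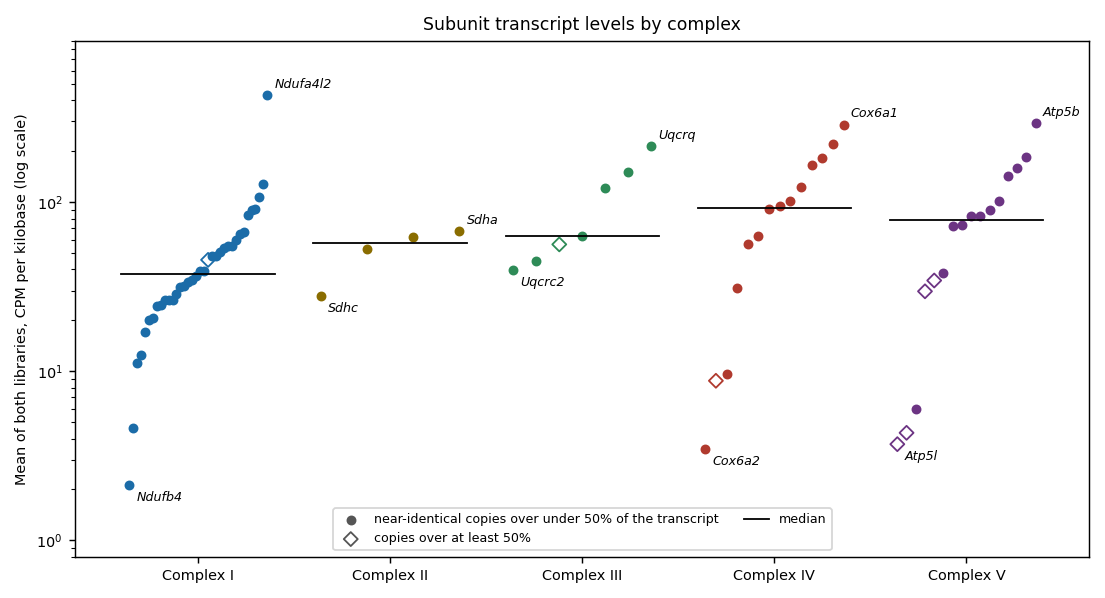
Level of each measured subunit gene in CPM per kilobase of transcript (mean of both libraries, log y axis), ordered within each complex, with black lines at the medians (37.6, 57.6, 62.8, 92.6 and 77.9 for complexes I to V). Open diamonds are the 7 members with near-identical copies over at least 50% of the transcript. Several of them lie near the bottom of complexes IV and V.

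Some of these low values go with sequence copies. Processed pseudogenes are common for short, abundant transcripts. Against all other annotated transcripts of GENCODE M21, 15 of the 84 members had matches of at least 75 bases at 98% identity or more, and for 8 these covered at least 50% of the transcript. Those 8 were Ndufs3 (75.7%), Ndufs5 (60.8%), Uqcrb (62.8%), Cox7c (58.3%), Atp5g1 (69.0%), Atp5g2 (100%), Atp5h (77.6%) and Atp5l (57.4%). The 7 of them that were measured had a median of 29.7 CPM per kilobase, and the 63 measured members without any match had 56.2. Measured members with matches over less than 50%, Ndufb4 among them, had a median of 30.9. Leaving out the members at 50% or more, the medians of complexes I to V were 36.4, 57.6, 92.1, 94.3 and 86.8. Complex III then stood above complex V. Whether multiply matching reads were dropped is not given in the sources used here, and the part of the copies in these levels was not tested. Ratios of the 7 had a median of 0.13 and those of the 70 other measured members a median of 0.06.

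Of the 6 members listed at 0 in both libraries, 3 encode subunits that the enzymes of every cell need: Ndufs3 of complex I, Uqcrc1 of complex III and Atp5a1 of complex V. For Ndufs3, copies cover 75.7% of the transcript, while none were found for Uqcrc1 or Atp5a1. Ndufs3 shares 8.4% of its transcript with exons of Kbtbd4 and Atp5a1 shares 5.2% with exons of Haus1. Both of those neighbours were listed at 0 in both libraries too. No level can be given for these genes.

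The mitochondrially encoded partners of these subunits split by abundance. Of 13 genes 11 had at least 20 counts. Among the 7 with more than 10000 summed counts, 5 had intervals below 0 and 2 had intervals above 0, with a median log2 ratio of -0.11 and a range of -0.16 to 0.03. The other 4, with 40 to 209 summed counts, had ratios from 0.25 to 1.52. Above 10000 counts the intervals are narrow (for mt-Co1 -0.12 to -0.10), so small differences exclude 0. The share of all genes of that abundance whose intervals exclude 0 is not given here. The median over all 11 was 0.02, while the ratio of their summed CPM was -0.07 on the log2 scale. The most abundant was mt-Co1, the catalytic subunit of complex IV, with 224779 and 191806 counts (log2 -0.11), followed by mt-Cytb of complex III with 95405 and 89320 (0.02). Among complex I genes mt-Nd1 was at 0.03, mt-Nd2 at -0.05, mt-Nd4 and mt-Nd5 both at -0.12 and mt-Nd6 at -0.16. The genes mt-Co2, mt-Co3, mt-Atp6, mt-Nd3 and mt-Nd4l had no more than 90 control counts and 119 treated counts, and in each of them at least 99% of the transcript had a near-identical annotated copy. For mt-Atp8, listed at 0, no copy was found, but the search covered annotated transcripts only and not the genome. The gene mt-Nd4 had 48422 and 41002 counts with copies over 63.6% of its transcript, which leaves a part without copies. The part of the copies in these counts was not tested. One of the rare genes, mt-Nd3, was the 1 gene of the list past the 1.5-fold rule and also past the 2-fold rule, with 11 and 29 counts (1.52, 0.47 to 2.67).

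Promoters of subunit genes are known for binding sites of nuclear respiratory factor 1 (NRF1), a transcription factor of respiratory genes. RefSeq promoter windows (GRCm38.p6, from 250 bases before to 50 after a gene's start) were found for 66 of the 84 members, in 71 windows. GCGCA followed by any base and GCGC, searched on both strands as a form of the NRF1 site, occurred in 18 of 71 member windows (25.4%), in 9.2% of the windows of genes with at least 20 counts and in 4.6% of all windows. The shorter letters CCGGAAG, a form of the site of GABPA, were in 22.5%, 16.3% and 8.86%, and AAGATGGC, a form of the YY1 site, in 12.7%, 4.15% and 2.75%. ACGTG, the core of sites for hypoxia-inducible factor, was in 23.9%, 24.6% and 19.6%. The motifs can share bases with each other, and a match describes letters only. The stretches below show the NRF1 letters in capitals for the most abundant members of complexes I, II, IV and V that hold them before the RefSeq start, each as 60 bases read 5′ to 3′ on the gene's strand.
Ndufa11 (chr17:56717677-56717736, + strand): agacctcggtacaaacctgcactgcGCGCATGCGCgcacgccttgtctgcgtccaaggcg
Sdha (chr13:74350241-74350300, - strand): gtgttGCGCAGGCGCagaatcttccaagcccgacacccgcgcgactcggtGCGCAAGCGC
Cox6a1 (chr5:115349041-115349100, - strand): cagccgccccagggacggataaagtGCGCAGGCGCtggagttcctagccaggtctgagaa
Atp5c1 (chr2:10080433-10080492, - strand): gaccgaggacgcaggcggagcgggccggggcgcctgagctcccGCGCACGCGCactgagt

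Of the genes beside these 4 stretches, Ndufa11 had 1697 and 1611 counts (0.04), Sdha a ratio of 0.15, Cox6a1 0.05 and Atp5c1 -0.02. Only Sdha had an interval that excluded 0 (0.09 to 0.20). With the length and GC trends removed, Sdha stood at 0.17 (0.11 to 0.22). Cox6a1 then stood at -0.12 (-0.18 to -0.06) and Ndufa11 at -0.13 (-0.23 to -0.03). Atp5c1 stood at -0.05, with an interval that holds 0. Measured members with the NRF1 letters (16) had a median log2 ratio of 0.05 and those with a window but without them (45) 0.09. Members with and without the HIF letters had medians of 0.13 and 0.06. Ndufa4l2 and Cox4i2 had no window and are in none of these medians. The length and GC trends were not removed from them. Nrf1 itself had 652 and 667 counts (0.15, -0.0079 to 0.31), Gabpa 2013 and 1700 (-0.13, -0.22 to -0.03) and Yy1 3276 and 3039 (0.0088).

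Among regulators of mitochondrial biogenesis, 11 of 15 genes had ratios above 1, with a median of 0.06 and none past the 1.5-fold rule. Over all measured genes 49.6% had ratios above 1, and the rule called 2.32% higher and 2.35% lower. In lists this short few or no calls would be met at those shares. Esrra, an orphan nuclear receptor that drives respiratory genes, had 1089 and 1243 counts (0.31, 0.19 to 0.43), and Polg, the mitochondrial DNA polymerase, 1538 and 1617 (0.19). The coactivator genes Ppargc1a (46 and 33 counts) and Ppargc1b (15 and 15) were rare, while Tfb1m had 142 and 108 (-0.28, -0.65 to 0.09). Tfam, which packs mitochondrial DNA, had 916 and 829 counts (-0.03). Coenzyme Q synthesis genes had the highest median of these lists, 0.20 over 13 genes, with 11 ratios above 1 and none past the 1.5-fold rule. Their highest member was Coq7, a hydroxylase of the pathway, among those with at least 200 counts (196 and 251, 0.47, 0.20 to 0.75), and their lowest Pdss1, which helps make the side chain (109 and 94, -0.10, -0.51 to 0.31).

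Assembly factors build the complexes without staying in them. The median was -0.04 over 15 genes for complex I and -0.02 over 10 for complexes II and III. It was 0.01 over 18 for complex IV and -0.0094 over 4 for complex V. The length and GC trends were not removed from these lists or from any other list outside the subunits. Lists of unlike transcript length are thus not directly comparable, and a difference between assembly factors and subunits was not tested. The complex IV factor Cox11, which delivers copper, was the 1 gene past the 1.5-fold rule, with 81 and 136 counts (0.86, 0.46 to 1.28), but 56.2% of its transcript overlaps exons of Tom1l1. Another copper factor of the same complex, Sco1, had 375 and 235 counts (-0.56, -0.80 to -0.32). Ndufaf8 of complex I had 217 and 299 (0.58, 0.32 to 0.84) and Uqcc2 of complex III 951 and 1087 (0.31, 0.18 to 0.44). Subunits and partners whose names fall outside the symbol rule had a median of 0.05 over 8 genes, with Ndufab1, the acyl carrier protein of complex I, at -0.20, cytochrome c1 (Cyc1) at 0.07, the ATP synthase inhibitor Atpif1 at 0.17 and Higd1a, a hypoxia-inducible partner of complex IV, at 0.39 (1746 and 2110 counts, 0.30 to 0.48).

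**Figure D5:**
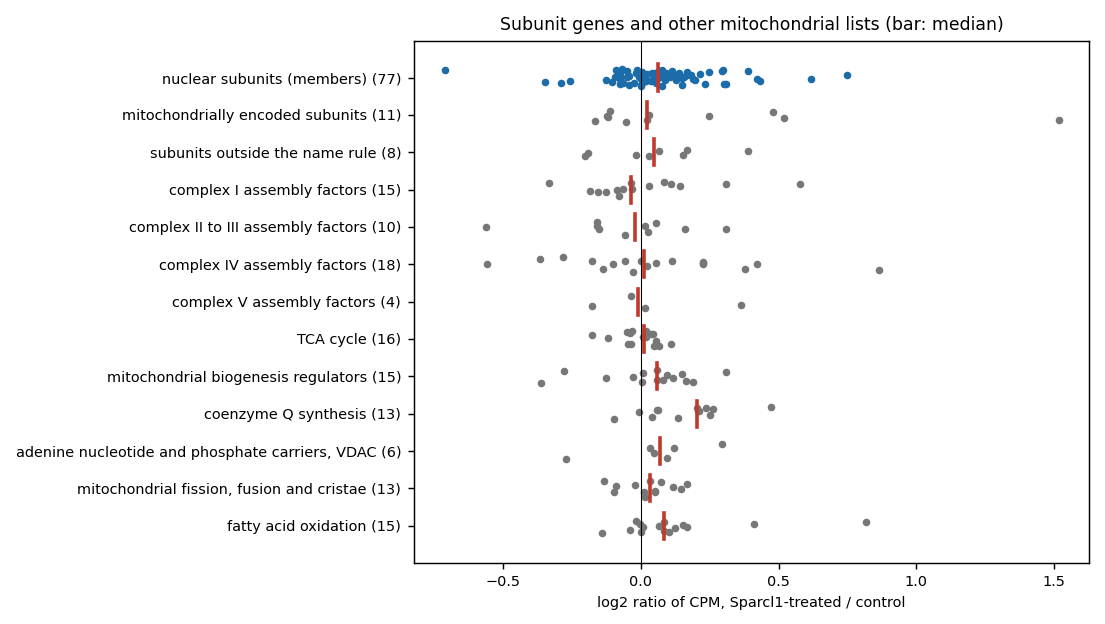
Log2 ratios of CPM (Sparcl1-treated over control, x axis) for the 77 subunit genes and the genes of 12 other mitochondrial lists with at least 20 summed counts (rows, with the number of genes). Points are genes and red bars are medians, which run from -0.04 for complex I assembly factors to 0.20 for coenzyme Q synthesis, with the subunits at 0.06. The length and GC trends were not removed.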

How the data were processed

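The authors deposited raw counts: for each library, whole numbers of reads by gene symbol. The tools named are STAR and HTSeq, with Trimmomatic and FastQC, and the build is mm10, per the submitters' processing notes. Versions, annotation, strand setting and the handling of reads with several matches are not given in the sources used here. Without strand, reads of overlapping genes on opposite strands cannot be told apart.

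Columns were matched to libraries by title. Counts were scaled to CPM with TMM factors of 0.988 and 1.01 (edgeR 4.0.16 under R 4.3.3) over the whole table, leaving 4 entries with repeated symbols (0.0132% of counts) out of gene-level results. Intervals used scipy 1.17.1, trends statsmodels 0.14.6, figures matplotlib 3.10.9 and tables pandas 2.3.3, under Python 3.11.15. PCR reads lacking molecular identifiers are not independent, and intervals cover counting error only. The steps were tested on simulated data.

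Lengths, GC content and positions come from GENCODE M21 (GRCm38, the assembly mm10 names). For each gene the principal transcript with the best support was used, and the shortest of equals. All 84 members matched, and 99.6% of measured genes had a length. Copies were searched with BLAST+ 2.17.0. This search covered annotated transcripts, not the genome.

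Members and lists were chosen with earlier results of these data known. The length classes, the motifs and 1 regrouping of Ndufa4 and Ndufa4l2 were chosen after seeing the data. Members named with values are the 3 highest and 3 lowest of each complex with at least 200 summed counts, the 2 most abundant per length, those past the 1.5-fold rule and the isoform genes; list genes were drawn from the 2 highest and 2 lowest with at least 200 counts and those past the rule. Any further gene was picked with its value known. Alternatives were library totals, upper-quartile factors, size factors from DESeq2 1.42.0, minimum counts of 1, 100 and 1000, length and GC trends removed (lowess, span 0.3), leaving out members with copies or without a structural role, a mean, and a ratio of sums. One gene is not reported by name here, and it stays in the counts and medians.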

Additional observations from a re-analysis of the deposited data

How the results depend on the processing

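The direction of the group rested on the treatment of transcript length and GC content. With both trends removed, the median log2 ratio was -0.0027 over all members, -0.036 for complex I, 0.0097 for complex III and -0.023 for complex V. No member was then higher by the 1.5-fold rule, and 15 of 77 intervals lay above and 15 below 0. The shares of all genes called under this setting are not given here. Without the removal, 20.1% of the intervals of all genes lay above 0 and 21.6% below. Among the 39 members examined one by one, 8 changed sign: Cox4i1, Cox6a1, Ndufa4l2, Ndufa7, Uqcrq, Atp5g1 and Atp5g3 moved to -0.03, -0.12, -0.037, -0.034, -0.037, -0.13 and -0.0089, and Cox7b to 0.02. Of the remaining measured members 11 changed sign. With at least 1000 summed counts, 0 members were higher and 0 lower by the 1.5-fold rule, because the 3 called members have fewer counts. Without members that have near-identical copies, 1 was higher. Under library totals, DESeq2 size factors and upper-quartile factors the members' median was 0.10, 0.06 and 0.06. As a mean it was 0.07 and as a ratio of summed CPM 0.08. Counting Ndufa4 and Ndufa4l2 with complex IV gave medians of 0.05 for complex I and 0.12 for complex IV. No paired analysis was possible because there was 1 library per group. Depth limits the rare members: the counting interval of Atp5l ran from -0.39 to 0.72 and that of Atp5b from 0.10 to 0.16.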

Other observations

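Enzymes that feed the chain lay near equal expression. Of 16 citric acid cycle and pyruvate dehydrogenase genes, 9 had ratios above 1, none passed the 1.5-fold rule, and the log2 ratios ran from -0.18 to 0.11 around a median of 0.01. Suclg2, a subunit of succinyl-CoA ligase, was lowest (969 and 791 counts) and Idh3b, a subunit of isocitrate dehydrogenase, highest (1935 and 1927). Fatty acid oxidation genes had a median of 0.09 over 15 genes, with 11 ratios above 1, where 49.6% of all measured genes had such ratios. Slc25a20, the carnitine-acylcarnitine carrier, was the highest with at least 200 counts (738 and 905, 0.41, 0.27 to 0.55), and Hadhb of the trifunctional protein the lowest (402 and 336, -0.14, with copies over 70.2% of its transcript).

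Carriers and channels of the mitochondrial membranes had a median of 0.07 over 6 measured genes, with 5 ratios above 1, where 49.6% of all measured genes had such ratios. Among carriers that exchange ATP and phosphate across the mitochondrial membranes, Slc25a4, an ADP/ATP carrier, had 7349 and 8304 counts (0.29, 0.25 to 0.34), while its close relative Slc25a5 had 5016 and 4945 (0.10, with copies over 71.5% of its transcript) and the phosphate carrier Slc25a3 13163 and 12436 (0.04). Of the outer membrane channels, Vdac1 had 7511 and 7531 counts (0.12, 0.07 to 0.17) and Vdac2 3625 and 3453 (0.05). Vdac3 had 1791 and 1370 counts (-0.27), with near-identical copies over 63.0% of its transcript. Genes of mitochondrial fission, fusion and cristae had a median of 0.03 over 13 genes, from -0.13 (Mtx2) to 0.17 (Fis1).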
